A study of Oryza sativa with 8 samples.

Results

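In the Calvin-Benson cycle of the chloroplast, ribulose bisphosphate (RuBP) is the sugar to which Rubisco adds CO2. The 6 loci described here encode enzymes that rebuild it. They were chosen by locus ID from the 36850 rows of the count table, and all 6 were in the table and passed the filter on low counts, which left 20690 rows for testing. The enzyme names are those given with the choice of loci, since the table pairs no locus ID with a gene name, and the names could not be checked against the counts. The study compared leaves of field-grown rice (Oryza sativa) in 2 groups of 4 libraries. Samples came from the leaf below the uppermost one at early heading, at about 10 in the morning, with plants spaced 0.2 m apart. The WT group was labelled wild type, and the mEmBP-OE-4 group came from 1 rice line that overexpresses mEmBP-1a, a basic leucine zipper transcription factor of maize. The sources used here do not name the cultivar, the promoter of the transgene or the number of plants behind a library. The p-values therefore measure only the spread between libraries, part of which may be technical.

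In the cycle, Rubisco fixes CO2, the products are reduced to triose phosphates, and most of the triose phosphate carbon is then rearranged into pentose phosphates to renew the acceptor. Fructose bisphosphatase (FBPase) and sedoheptulose bisphosphatase (SBPase) each remove a phosphate in steps that are practically irreversible, and both enzymes are switched on in the light through thioredoxin. Transketolase moves carbon units between sugar phosphates, an isomerase and an epimerase turn the resulting pentose phosphates into ribulose phosphate, and phosphoribulokinase spends ATP to make RuBP. SBPase in particular is known for a strong hold on the rate of carbon fixation in leaves of several plants.

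Transcripts of 5 of the 6 enzymes rose in mEmBP-OE-4, by 1.68-fold to 2.30-fold, and phosphoribulokinase did not pass the test. The epimerase and the isomerase had the largest estimates, 2.30-fold and 2.24-fold, followed by transketolase at 1.84-fold, SBPase at 1.73-fold and plastid FBPase at 1.68-fold. Calls were made with the quasi-likelihood test of edgeR, adjusted over all tested genes by Benjamini-Hochberg with a threshold of 0.05. By this rule 20.1% of all tested genes were higher, 19.1% lower and 39.2% called in either direction. The median log2 fold change of the 6 loci was 0.84, against 0.00 over all tested genes. In a leaf sample, fewer cells of a type and less RNA per cell cannot be told apart.

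Libraries held 35627524 to 50800180 counts, and the 6 loci had 9499 to 130927 counts in each library, so that counting error alone was at most 1.03% of a value. Levels are CPM, each library's counts scaled to a total of 1000000, with library sizes adjusted by TMM, a method that centres most genes on no change. The TMM factors themselves differed between the groups, 1.11 to 1.28 in WT and 0.741 to 1.01 in mEmBP-OE-4. With library totals in place of TMM, the middle log2 fold change over all genes fell to -0.47 and that over the 6 loci to 0.35, and 8.47% of tested genes were called higher and 43.1% lower. Levels of different loci are not compared as amounts of transcript, since transcript lengths were not used here. Shares and rankings of counts given below carry no length correction, and the shares are set only group against group.

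**Figure D1:**
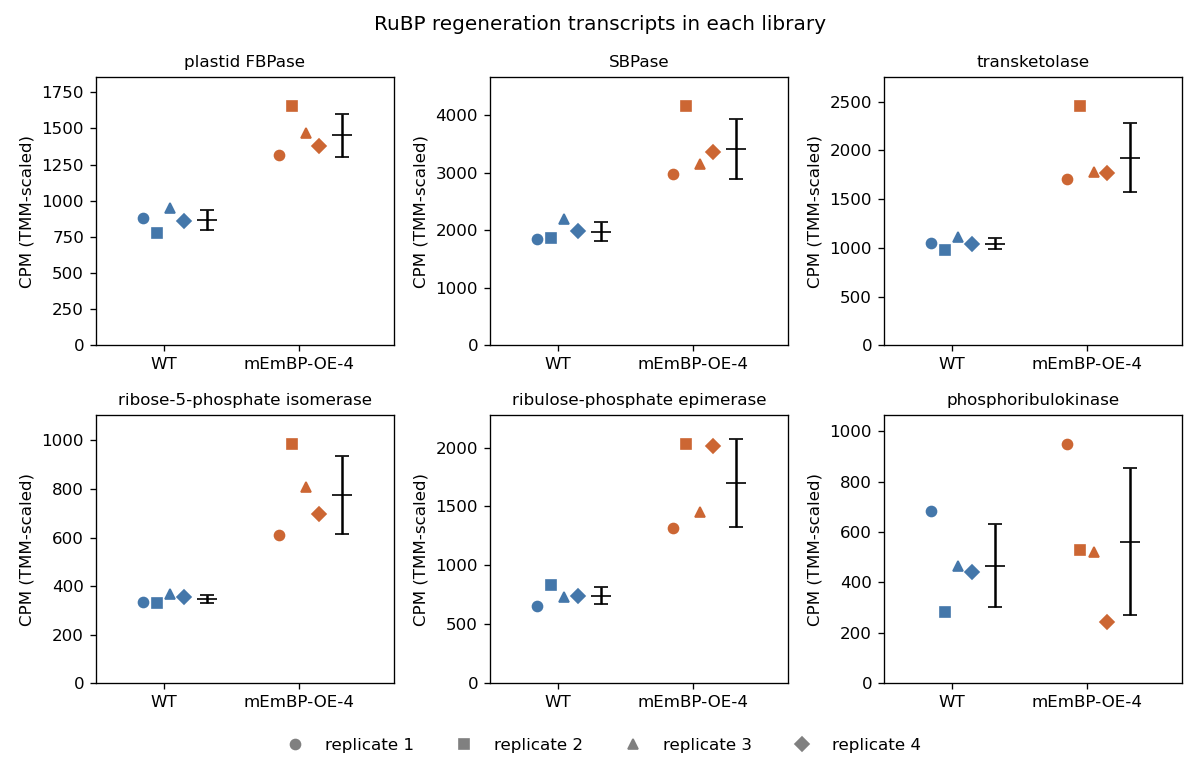
Level of each of the 6 transcripts in CPM on TMM-scaled library sizes, with 1 symbol for each replicate number, and the mean with its SD (n = 4) as black bars beside each group. The groups lie apart in 5 panels, and in the phosphoribulokinase panel the mEmBP-OE-4 libraries run from 244 to 951 CPM and overlap WT.

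Plastid FBPase (Os03g0267300, on chromosome 3 by its ID) opens the branch by releasing fructose phosphate. It stood at 879, 774, 950 and 862 CPM in WT replicates 1 to 4, and at 1313, 1655, 1469 and 1377 CPM in mEmBP-OE-4 replicates 1 to 4. The groups did not overlap, as was so with the line above WT for 18.8% of all tested genes, and its spread was the smallest of the 6 on the log2 scale, with a within-group SD of 0.13. The mean went from 866 ± 72.2 to 1453.5 ± 149 CPM (SD, n = 4). On the log2 scale the change was 0.75 (SE 0.13, 95% interval 0.45 to 1.04; edgeR, adjusted p = 0.00214). This call was lost under another scaling. On library totals alone the change was 0.27 with adjusted p = 0.0613 (edgeR), and the groups overlapped, 908 to 1125 CPM in WT against 1057 to 1329 CPM in mEmBP-OE-4.

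SBPase (Os04g0234600, on chromosome 4 by its ID) releases sedoheptulose phosphate for the next transketolase step. Its levels were 1839, 1863, 2196 and 1983 CPM in WT, against 2973, 4156, 3144 and 3358 CPM in mEmBP-OE-4, in the order of the replicate numbers. Every mEmBP-OE-4 library lay above every WT library, with replicate 2 the highest. The mean rose from 1970.5 ± 163 to 3408 ± 523 CPM (SD, n = 4). On the log2 scale the change was 0.79 (SE 0.16, 95% interval 0.44 to 1.14; edgeR, adjusted p = 0.00384). With library totals alone the groups still lay apart, and the change was 0.30 with adjusted p = 0.0177 (edgeR). How many of all tested genes lay apart on that scaling was not counted.

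Transketolase (Os06g0133800, on chromosome 6 by its ID) acts at more than one step of the rearrangement. In WT it stood at 1051, 976, 1111 and 1042 CPM, a narrow range, and in mEmBP-OE-4 at 1708, 2456, 1774 and 1769.6 CPM. The groups were apart, and mEmBP-OE-4 replicate 2 stood well above the other 3 libraries of its group. From 1045 ± 55.3 CPM in WT the mean rose to 1927 ± 354 CPM (SD, n = 4). On the log2 scale the change was 0.88 (SE 0.15, 95% interval 0.54 to 1.23; edgeR, adjusted p = 0.00201). Without mEmBP-OE-4 replicate 2 the change was 0.74 with adjusted p = 0.00323 (edgeR), and with library totals alone it was 0.39 with adjusted p = 0.0142 (edgeR).

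Ribose-5-phosphate isomerase (Os07g0176900, on chromosome 7 by its ID) turns ribose phosphate into ribulose phosphate. WT libraries held 333, 332, 367 and 353 CPM of it, and mEmBP-OE-4 libraries 612, 987, 806 and 697 CPM. The lowest mEmBP-OE-4 library was well above the highest WT library. The mean rose from 346 ± 16.9 to 776 ± 161 CPM (SD, n = 4). This was a log2 change of 1.16 (SE 0.16, 95% interval 0.81 to 1.52; edgeR, adjusted p = 5.68e-04). With library totals alone it was 0.67 with adjusted p = 0.00137 (edgeR).

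Ribulose-phosphate epimerase (Os03g0169100, on chromosome 3 by its ID) makes the same product from xylulose phosphate. It measured 656, 832, 735 and 736 CPM in WT, against 1313, 2032, 1449 and 2011 CPM in mEmBP-OE-4. The groups did not overlap, and within mEmBP-OE-4 replicates 2 and 4 were high and replicates 1 and 3 low. The mean rose from 740.01 ± 72.2 to 1701 ± 374 CPM (SD, n = 4). This was a log2 change of 1.20 (SE 0.18, 95% interval 0.80 to 1.60; edgeR, adjusted p = 9.24e-04). With library totals alone it was 0.70 with adjusted p = 6.14e-04 (edgeR).

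Phosphoribulokinase (Os02g0698000, on chromosome 2 by its ID) catalyses the last step, which is particular to the Calvin-Benson cycle. Its levels were 683, 281, 464 and 440 CPM in WT, against 951, 529, 521 and 244 CPM in mEmBP-OE-4. The groups overlapped throughout: the lowest of all 8 libraries was mEmBP-OE-4 replicate 4, the highest was mEmBP-OE-4 replicate 1, and replicate 1 was the highest library of each group. The mean was 467 ± 165 CPM in WT, against 561 ± 292 CPM in mEmBP-OE-4 (SD, n = 4). On the log2 scale the change was 0.27 (SE 0.38, 95% interval -0.60 to 1.13; edgeR, adjusted p = 0.611). The interval holds no change, a fall and rises as large as those of SBPase or transketolase. The sign rested on scaling and on single libraries, being -0.15 with library totals alone and -0.13 without mEmBP-OE-4 replicate 1, while the change was 0.50 without WT replicate 1, 0.08 without WT replicate 2 and 0.51 without mEmBP-OE-4 replicate 4, none of them called.

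**Figure D2:**
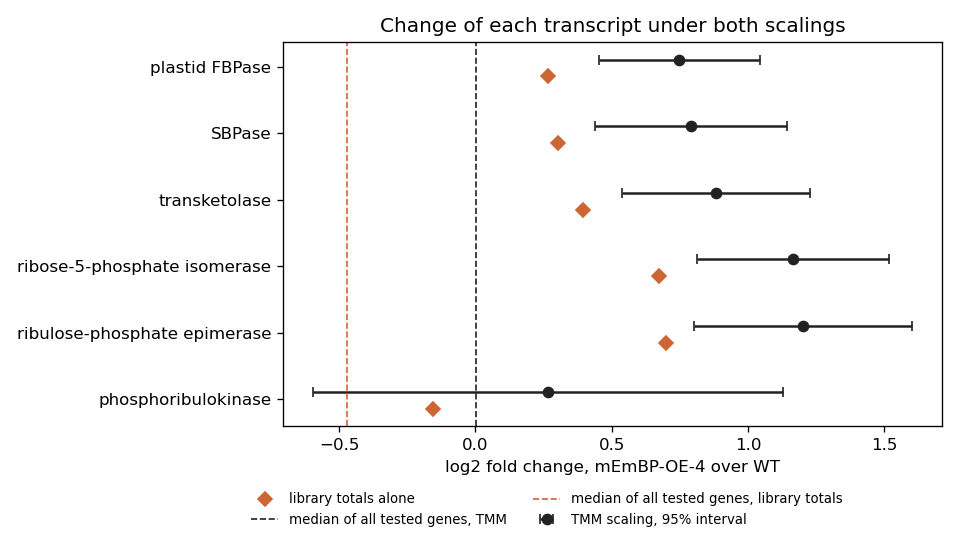
Log2 fold change of mEmBP-OE-4 over WT for each transcript, with the 95% interval from the edgeR fit on TMM-scaled counts (black) and the estimate with library totals alone (orange diamonds); dashed lines give the median of all tested genes under each scaling. Phosphoribulokinase has the widest interval, -0.60 to 1.13, and the other 5 intervals start at 0.44 or higher.

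Phosphoribulokinase had the largest spread of the 6 between libraries of one group, given here as a description with no test. On the log2 scale its within-group SD was 0.68, larger than that of 96.2% of all tested genes and of 98.0% of the 500 genes with the highest mean CPM. The other 5 loci had within-group SDs of 0.13 to 0.25, where the median of all tested genes was 0.24. The highest phosphoribulokinase library was 2.43 times the lowest in WT and 3.90 times the lowest in mEmBP-OE-4, while no other member exceeded 1.27 times in WT or 1.61 times in mEmBP-OE-4. It made up 8.55% ± 2.91 of the counts of the 6 loci in WT and 5.87% ± 3.48 in mEmBP-OE-4 (SD, n = 4), and these shares overlapped.

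**Figure D3:**
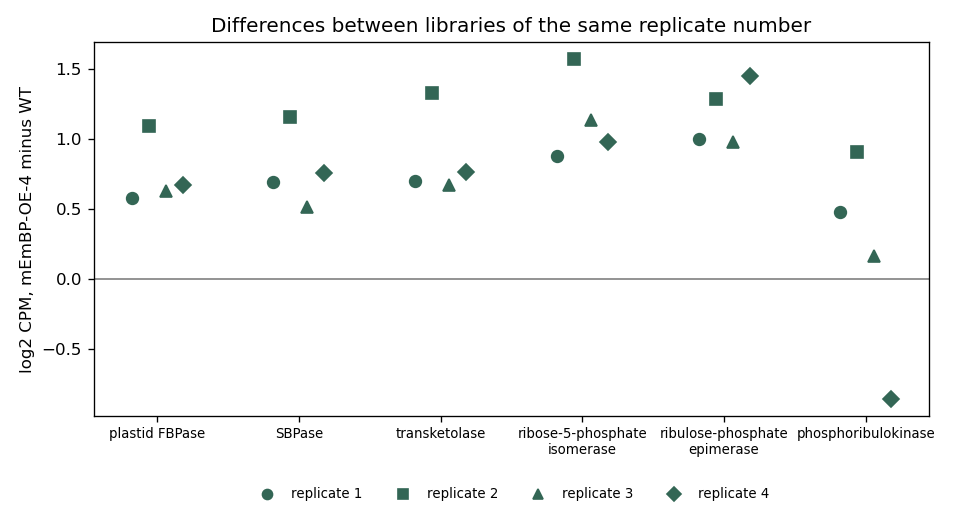
Difference in log2 CPM between the mEmBP-OE-4 and the WT library of the same replicate number, with 1 symbol for each number. All 4 differences are above 0 for 5 transcripts, between 0.52 and 1.57, as any pairing would give since their groups did not overlap. The differences of phosphoribulokinase run from -0.85 to 0.91.

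Same-numbered libraries were taken as pairs, though the labels do not say what a number shares. Across genes their deviations correlated at r = 0.641 for number 1 but 0.104 for number 4. WT replicate 2 correlated more with mEmBP-OE-4 replicate 4 than with its own number. By this pairing the 5 transcripts that rose were higher in mEmBP-OE-4 in 4 of 4 pairs. Any pairing would give this, since their groups did not overlap on TMM scaling. Pair 2 had the largest difference for plastid FBPase (1.10), SBPase (1.16), transketolase (1.33) and the isomerase (1.57), and pair 4 for the epimerase (1.45). The TMM factor was lowest in mEmBP-OE-4 replicate 2, at 0.741, which raises every CPM of that library. On library totals alone the pair 2 differences of these 4 loci were smaller, 0.43, 0.50, 0.67 and 0.91, and were still the largest of the 4 pairs. For phosphoribulokinase the differences were 0.48, 0.91, 0.17 and -0.85 in pairs 1 to 4, so that pair 4 held its only negative difference on TMM scaling and the largest positive one of the epimerase. On library totals alone phosphoribulokinase was negative in pair 3 as well, at -0.15, and stood at -1.46 in pair 4. With the replicate number as a block, the same 5 loci rose, as did 25.2% of all tested genes, and phosphoribulokinase had a change of 0.18 with adjusted p = 0.575 (edgeR).

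Ratios between members within a library need no scaling and were used to ask whether the transcripts changed by unequal amounts. Of the 15 pairs of members none passed a two-sided exact permutation test after Benjamini-Hochberg adjustment over the 15 pairs, and 3 had an unadjusted exact p = 0.0286, the smallest that 4 libraries against 4 allow. With that smallest p, at least 9 pairs would have had to reach it for any to pass. In all 3 the isomerase gained on its partner and the groups did not overlap. The log2 ratio of plastid FBPase to the isomerase went from 1.32 ± 0.08 in WT to 0.92 ± 0.15 in mEmBP-OE-4 (SD, n = 4, adjusted exact permutation p = 0.143). That of SBPase to the isomerase went from 2.51 ± 0.05 to 2.15 ± 0.15, and that of transketolase to the isomerase from 1.59 ± 0.05 to 1.32 ± 0.14, each with the same adjusted exact p of 0.143.

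Among the bisphosphatases and transketolase the mean ratios differed by less than their ratios to the isomerase did, which does not show that they were equal. The log2 ratio of plastid FBPase to SBPase was -1.19 ± 0.09 in WT and -1.22 ± 0.10 in mEmBP-OE-4 (SD, n = 4), a difference of -0.04 (exact permutation p = 0.571, adjusted 0.612). SBPase to transketolase differed by -0.09 between the groups (exact permutation p = 0.143, adjusted 0.238). Plastid FBPase to transketolase had the largest difference of these 3, -0.12 (exact permutation p = 0.0857, adjusted 0.214), and was lower in mEmBP-OE-4 in 4 of 4 pairs. The 5 ratios that involve phosphoribulokinase had the largest differences, 0.57 to 1.003 in favour of the other enzyme, but with SDs of 0.45 to 1.07 their groups overlapped and their exact permutation p ran from 0.114 to 0.286. By replicate number, all 5 of these ratios were higher in mEmBP-OE-4 in 4 of 4 pairs. That of the isomerase to phosphoribulokinase, for example, was higher by 0.40, 0.66, 0.97 and 1.83 in pairs 1 to 4. All 5 share the phosphoribulokinase counts, so they are not 5 separate observations. The paired exact p of these 5 ratios was the smallest that 4 pairs allow, which is above the threshold. Neither test therefore called a difference between phosphoribulokinase and the other members. These ratios were among 12 of the 15 that moved one way in all 4 pairs. The 15 ratios come from 6 loci and are not independent of each other. The 3 ratios whose groups did not overlap would move one way under any pairing.

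**Figure D4:**
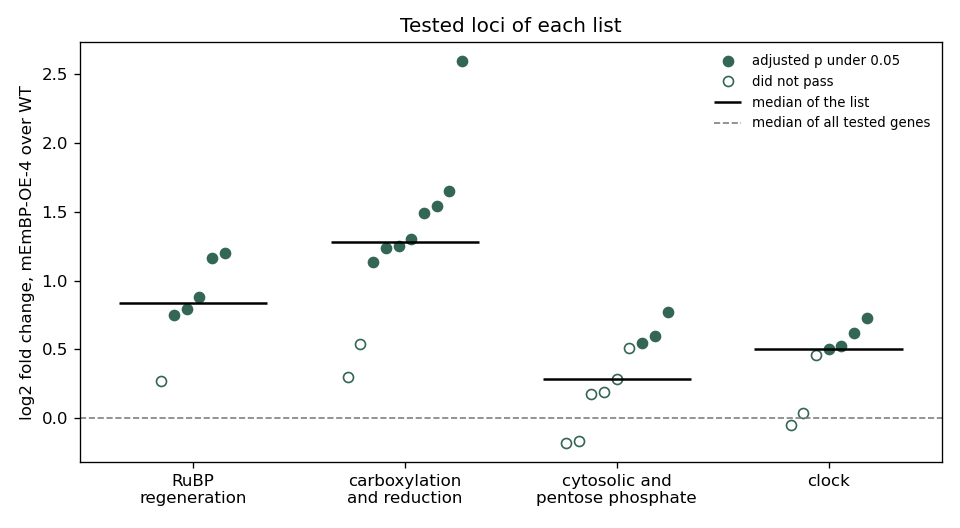
Log2 fold change of mEmBP-OE-4 over WT for the tested loci of 4 lists on TMM-scaled counts, filled where the adjusted p was under 0.05 (edgeR), with the median of each list as a bar and that of all tested genes as a dashed line. The RuBP regeneration loci have a median of 0.84, below the 1.28 of the carboxylation and reduction loci and above the 0.28 and 0.50 of the other 2 lists, differences that were not tested.

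The rest of the pathway was read from lists of locus IDs recalled for these roles, which the table does not name. The recalled IDs, here and in the 2 lists below, could not be checked, and some may be wrong. A list held 10 loci for carboxylation and reduction (Rubisco small subunits, Rubisco activase and the enzymes from phosphoglycerate to fructose bisphosphate). Where 20.1% of all tested genes rose and 19.1% fell, 8 of these loci rose, 2 did not pass and none fell. Their median log2 fold change was 1.28. On library totals alone it was 0.79, with the same counts of calls, where 8.47% of all tested genes rose. The number that rose was 9 with DESeq2, with at least 5 CPM in 4 libraries and without mEmBP-OE-4 replicate 1. Under these settings 4745 of 20690, 2602 of 12157 and 4152 of 20986 tested genes rose. The 2 that did not pass were the loci with the most counts, which together took 79.8% ± 0.179 of the counts of the 16 Calvin-Benson loci in WT and 68.0% ± 1.13 in mEmBP-OE-4 (SD, n = 4). The steps up to fructose bisphosphate were counted with the 10 loci, so the shares and medians of the lists depend on that division. The regeneration loci took 6.56% ± 0.714 of the counts of the 16 loci in WT and 7.81% ± 1.20 in mEmBP-OE-4 (SD, n = 4). Their shares overlapped, 5.91% to 7.58% against 6.73% to 9.53%. Of all counts in a library their part was 0.642% ± 0.0427 in WT, against 0.829% ± 0.0769 in the line (SD, n = 4), and here the ranges were apart, 0.593% to 0.697% against 0.726% to 0.898%.

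Loci recalled for cytosolic sugar phosphate enzymes and the oxidative pentose phosphate route, which share intermediates with RuBP regeneration, were read as a further list. Of 12 such loci 9 were tested, 3 rose and none fell, around a median of 0.28, where 20.1% of all tested genes rose. The untested loci did not pass the filter on low counts and may be wrong IDs. On library totals alone 1 of the 9 fell and none rose, around a median of -0.17, where 43.1% of all tested genes fell. Calvin-Benson transcripts vary over the day, so loci recalled for the circadian clock were read beside them. Of 7 clock loci 4 rose and none fell (median 0.50), beside the same 20.1% of all tested genes. On library totals alone 2 fell and none rose (median 0.02), beside the same 43.1%. Leaving out WT replicate 2, WT replicate 3, or replicate 2 or 4 of mEmBP-OE-4 brought the clock count to 1, and leaving out WT replicate 1 or 4 brought it to 2. The part of the hour of harvest in the rise of the regeneration loci was not tested.

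The loci most like the members over the 8 libraries were found by Pearson's r with the mean standardised log2 CPM of the 6 members, given as a description, since the groups lie apart in 5 of the members. Os05g0574400 had r = 0.998 and went from 221 ± 24.7 to 518 ± 84.2 CPM (SD, n = 4), or by 1.23 on the log2 scale. Os04g0404800 had r = 0.996 and went from 490 ± 21.9 to 699 ± 56.2 CPM (SD, n = 4), or by 0.51 on the log2 scale. The table gives no name for either locus. With each group's mean taken off, the highest r of any locus that is no member was 0.985.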

How the data were processed

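Total RNA from 8 leaf samples was sequenced, and the authors deposited 1 table of raw counts, whole numbers per gene with a column for each library. Per the submitters' processing notes, the tools were DESeq2, STAR 2.5.3a, Trim Galore and FastQC and the build was IRGSP-1.0. Which tool counted, with which strand setting and annotation, is not stated there, so reads shared with near-identical or antisense genes carry an unknown error. None of the 6 member loci matched the RefSeq gene table for assembly ASM3414082v1, so no names, lengths or sequences were taken from it. Transcripts of the maize transgene were not analysed here.

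Groups were taken from the sample titles. The filter filterByExpr (counts of at least 10, totals of at least 15) and TMM scaling preceded the quasi-likelihood test of edgeR 4.0.16 (R 4.3.3), with group as its only term and Benjamini-Hochberg adjustment over 20690 genes. Standard errors were derived from the F statistic and the log2 fold change. Ratios of members used counts plus 0.5 and two-sided exact permutation tests over the 70 possible assignments of 8 libraries. Within-group SDs used log2 of CPM plus 0.5. The fit was tested on simulated counts.

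Deviations of same-numbered libraries from their group means correlated across genes at r = 0.641, 0.347, 0.189 and 0.104 for numbers 1 to 4. The numbers were taken as pairs, and a further fit held them as a replicate block. The value for number 4 was below that of WT replicate 1 with mEmBP-OE-4 replicate 3 (r = 0.124), so the check says little for that pair. The pairing comes from this check, since the labels do not say what a number shares. WT replicate 2 correlated more with mEmBP-OE-4 replicate 4 (r = 0.472) than with its own number. Alternatives were library totals alone, upper-quartile or median-of-ratios factors, DESeq2 1.42.0, limma-voom (limma 3.58.1), no filter, at least 5 CPM in 4 libraries, and leaving out libraries. The members, lists and tests were chosen with earlier results of these data known. Named loci are the 6 members and the 2 loci most like them.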

Additional observations from a re-analysis of the deposited data

Results flagged for a closer look

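Among 42 groups of 4 values checked with Dixon's criterion, 12 of member levels and 30 of ratios between members, 1 held a library far from the rest, where chance gives about 1 in 20 groups. Transketolase stood at 2456 CPM in mEmBP-OE-4 replicate 2, against 1708 to 1774 CPM in the other 3 libraries of the group. That library has the lowest TMM factor, 0.741. On library totals alone it held 1820 CPM of transketolase, against 1358 to 1729 CPM in the other 3.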

How the results depend on the processing

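The 5 regeneration loci that rose were each called under every alternative except library totals alone, where plastid FBPase was not called (0.27 on the log2 scale) and 4 rose. Phosphoribulokinase was called under none and changed sign with library totals alone (-0.15) and without mEmBP-OE-4 replicate 1 (-0.13); with single libraries left out it ran from -0.13 to 0.51. Plastid FBPase ran from 0.67 to 0.79, SBPase from 0.67 to 0.84, transketolase from 0.74 to 0.92, the isomerase from 1.02 to 1.25 and the epimerase from 1.09 to 1.29. Calls over all genes numbered 8109, 5220 with at least 5 CPM in 4 libraries, 10200 with the replicate block and 6399 to 8450 with single libraries left out. With library totals alone 1752 genes were higher and 8912 lower, in place of 4155 and 3954. The cytosolic and pentose phosphate number, 3 higher, was 2 to 4 higher with single libraries left out. With library totals alone it was 1 lower and none higher. The clock number, 4 higher, was 2 with no filter, 1 to 4 with single libraries left out and 5 with the replicate block. Over all tested genes, 4421 of 29163 were higher with no filter and 5214 of 20690 with the replicate block. With library totals alone it was 2 lower and none higher. The replicate block changed no call among the 6 regeneration loci. No ratio of members passed when 1 was added to each count either. With 3 libraries against 4 the exact test of ratios cannot reach the threshold, so only differences were recomputed there, and neither can the paired test over 4 pairs. Depth does not limit the members, whose counts are high, while the spread between 4 libraries and the choice of scaling do.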
